A study of Mus musculus with 53 samples.

Results

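Synaptic vesicle release genes encode the proteins that fill the presynaptic terminal with transmitter vesicles, hold them at the active zone, fuse them with the plasma membrane when calcium enters and retrieve them afterwards. A list of 51 such genes, written by symbol, was looked up in an RNA sequencing count table of 12372 genes, and 50 of them were found there. Cplx3, a complexin, was not analysed here. Levels were compared between brainstem, cerebellum, cortex and striatum, and between SCA3 and wild-type mice within each of these regions. The SCA3 mice were hemizygous MJD84.2 mice, which carry all of human ATXN3, with a lengthened CAG repeat and the human promoter, and express it throughout the body next to their own Atxn3. The wild-type mice were C57BL/6. All were untreated males that had gone through repeated motor tests earlier in life, and they were 74 to 77 weeks old. The libraries of wild-type and SCA3 numbered 8 and 6 in brainstem, 7 and 6 in both cerebellum and cortex, and 8 and 5 in striatum, which gave 53 libraries from 14 mice.

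A transmitter vesicle carries the SNARE protein synaptobrevin, encoded by Vamp1 or Vamp2, which zippers with syntaxin-1 (Stx1a) and SNAP-25 (Snap25) in the plasma membrane. Complexins hold this complex before calcium binds to a synaptotagmin and fusion follows, and NSF with its SNAP adaptors pulls the spent complex apart. Munc13 (Unc13a, Unc13b, Unc13c), RIM (Rims1, Rims2, Rims3), Bassoon (Bsn) and Piccolo (Pclo) build and prime the release site, while dynamin (Dnm1), amphiphysin (Amph), synaptojanin (Synj1), endophilin (Sh3gl2) and AP180 (Snap91) serve retrieval. Many of these proteins come in paralogues that different neurons use in different mixtures, with Vamp1 and Syt2 known from fast-firing neurons of the hindbrain and spinal cord, and Vamp2 and Syt1 from forebrain neurons.

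Library totals ranged from 31.7 to 76.7 M counts, and the lowest count of any of the 50 genes in any library was 93, so that no library listed one at 0. The unit CPM is a count divided by the TMM-adjusted total of its library in M. Tissue labels were checked against marker lists. The mean log2 CPM of 8 markers of cerebellar granule and Purkinje cells lay between 8.90 and 9.36 in wild-type cerebellum and reached at most 5.62 in the other wild-type regions, while 12 markers of striatal projection neurons lay between 7.35 and 9.40 in wild-type striatum, with cortex next at 5.69 to 7.99. The striatal libraries of wild-type mice 7267058 and 7267059 stood apart, with a mean log2 CPM of 11 thalamus markers of 7.33 and 7.61 against 3.85 to 5.74 in the other 6 wild-type and 3.87 to 5.45 in the 5 SCA3 striatal libraries. The counts of highest and lowest regions, selected steps between striatum and other regions, and the genotype calls are given with and without these 2 libraries. In bulk tissue, fewer cells of a type and less RNA per cell cannot be told apart.

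To compare one gene with another, CPM was divided by exon length in kb. On this scale Snap25, the SNARE of the plasma membrane, had the highest level of the group in every wild-type region, with 1440 ± 213 CPM per kb in brainstem (SD, n = 8), 1040 ± 142 in cerebellum (n = 7), 1170 ± 374 in cortex (n = 7) and 795 ± 157 in striatum (n = 8). Syp, which encodes the abundant vesicle tetraspan synaptophysin, came second in cerebellum, cortex and striatum, at 362 ± 13.7, 601 ± 82.1 and 376 ± 79 CPM per kb. In brainstem the complexin gene Cplx1 took that place with 499 ± 97.2, followed by Syp with 454 ± 35 and by the disassembly ATPase Nsf with 327 ± 20.1. Vamp2 came next in cerebellum, cortex and striatum, whereas Vamp1 was among the first 5 genes in brainstem, at 271 ± 51 CPM per kb. The lowest gene was Doc2b in brainstem (5.04 ± 3.31), Rab3b in cerebellum (2.48 ± 0.546), Syt9 in cortex (4.58 ± 1.5) and Unc13b in striatum (5.57 ± 2.01). Without the 2 striatal libraries with high thalamus markers, striatum held 729 ± 109 CPM per kb of Snap25, 380 ± 45 of Vamp2, 351 ± 70 of Syp and 5.78 ± 2.34 of Unc13b (n = 6), so that Vamp2 came before Syp there.

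The next comparison asked how the machinery differs between wild-type regions. The median gene of the group spanned 1.06 log2 units between its highest and lowest region mean of log2 CPM, against 0.58 for all 12372 genes, and 27 of the 50 spanned more than 1 unit (54%, against 26.6% of all genes). A gene was assigned to a highest region when it exceeded each of the other 3 with an FDR below 0.05 by edgeR. This held for 28 of the 50 genes (56%) and for 46.5% of all genes. Cortex was the highest region of 12 release genes, where 6.73% of all genes met this rule. Brainstem was the highest region of 9 (14.6% of all genes), cerebellum of 6 (20.9%) and striatum of 1 (4.17%). All 28 had their highest mean in the same region in SCA3 mice. The median range was 1.08 log2 units in the group and 0.60 over all genes without the 2 striatal libraries.

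**Figure D1:**
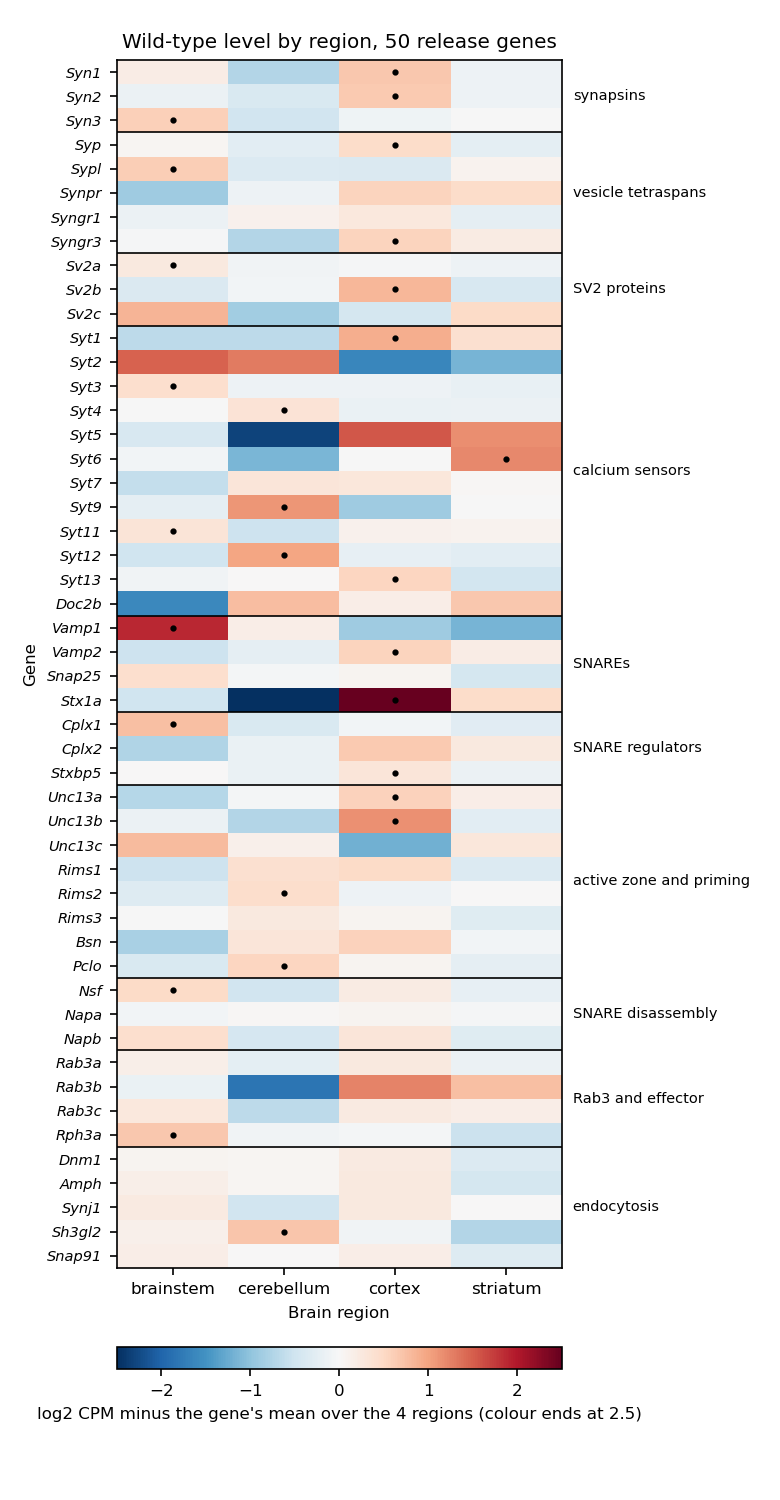
Wild-type level of the 50 genes in each brain region, as log2 CPM minus the mean of the gene over the 4 regions (red higher, blue lower), in rows grouped by role, with a black dot where a region exceeded each of the other 3 at an FDR below 0.05. The dots number 9 in brainstem, 6 in cerebellum, 12 in cortex and 1 in striatum, and Stx1a runs past the colour scale at both ends.

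The 12 cortical genes held members of most steps of the cycle. Among the synapsins, which tie vesicles into the reserve pool, Syn1 reached 492 ± 127 CPM in cortex (SD, n = 7) against 182 ± 14.8 in cerebellum (n = 7), and Syn2 reached 628 ± 182 against 298 ± 16.1. The vesicle proteins Syp, Syngr3 (synaptogyrin-3) and Sv2b were also highest in cortex. Sv2b stood at 451 ± 171 CPM there and at 188 ± 36, 228 ± 29.4 and 191 ± 75.9 in brainstem, cerebellum and striatum. The other cortical genes were Syt1 and Syt13, the SNAREs Vamp2 and Stx1a, the tomosyn gene Stxbp5, whose product competes for SNAREs, and the priming genes Unc13a and Unc13b. Unc13b was 1.26 log2 units higher in cortex than in brainstem, its next region (SE 0.17, FDR = 2e-12).

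Brainstem was highest for Syn3, Sypl, Sv2a, Syt3, Syt11, Vamp1, Cplx1, Nsf and Rph3a, the last encoding the Rab3 effector rabphilin-3A. Cplx1 averaged 1090 ± 213 CPM in brainstem (n = 8), against 637 ± 204 in cortex, 553 ± 233 in striatum (443 ± 44.9 without the 2 libraries) and 494 ± 36.1 in cerebellum. Its paralogue Cplx2 ran the other way and was lowest in brainstem, at 470 ± 57.7 CPM against 1260 ± 199 in cortex. Cerebellum was highest for the synaptotagmins Syt4, Syt9 and Syt12, the active zone genes Rims2 and Pclo, and the endophilin gene Sh3gl2. Pclo averaged 580 ± 81.7 CPM in cerebellum, 415 ± 26.5 in cortex, 342 ± 55.8 in striatum and 303 ± 37.4 in brainstem.

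The lowest region was assigned by the mirror rule. Cerebellum was the lowest region of 13 genes (20.4% of all genes met the rule there), among them all 3 synapsins, Syt5, Stx1a, Unc13b, Rab3b and Rab3c. Brainstem was lowest for 8 (14% of all genes), which included Vamp2, Cplx2, Unc13a, Rims2 and Bsn. Striatum was lowest for 6 (3.71%), namely Snap25, Rph3a and 4 of the 5 endocytosis genes, Dnm1, Amph, Sh3gl2 and Snap91. Cortex was lowest for Syt9 and Unc13c (4.74%). Without the 2 striatal libraries with high thalamus markers, the highest region was brainstem for 10 genes (15.9% of all genes), cerebellum for 6 (20.5%), cortex for 11 (5.05%) and striatum for 1 (5.67%). Unc13a then had no single highest region, and Unc13c joined the brainstem genes. The lowest region was then brainstem for 9 genes (14.7% of all genes), with Syt12 added, and cerebellum for 12 (20%), with Nsf lost. It was cortex for 1 (3.27%), with Syt9 lost, and striatum for 9 (5.84%), with Syt13, Vamp1 and Rims3 added.

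The widest regional range belonged to Stx1a (chr5:135023482-135051100, GRCm38), which encodes syntaxin-1A. Its wild-type libraries held between 91.9 and 365 CPM in cortex with a median of 236, between 18.2 and 143 in striatum with a median of 37.6, between 18.7 and 31.3 in brainstem with a median of 20.4, and between 1.72 and 10.1 in cerebellum with a median of 7.37. Cortex and striatum overlapped through 1 striatal library, that of mouse 9083375, while every cerebellar library lay below every library of the other regions. Each step of this order passed the test, with 2.18 log2 units from cortex to striatum (SE 0.37, FDR = 2.1e-07), 1.19 from striatum to brainstem (FDR = 0.0019) and 1.93 from brainstem to cerebellum (FDR = 1.2e-06). Cortex thus stood 39.3-fold above cerebellum. Leaving out the 2 striatal libraries, the step from cortex to striatum was 1.97 (FDR = 1.8e-05) and that from striatum to brainstem 1.40 (FDR = 0.00034).

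Syt5 and Rab3b shared this order. Syt5, a synaptotagmin gene, averaged 163 ± 13.3 CPM in cortex, 133 ± 43.4 in striatum, 42.7 ± 9.12 in brainstem and 13.1 ± 7.23 in cerebellum. The step from cortex to striatum missed the threshold (0.29 log2 units, SE 0.28, FDR = 0.43). The lower steps of 1.65 and 1.70 log2 units both had an FDR of 1e-08. Rab3b, which encodes a small GTPase of secretory vesicles, averaged 69.4 ± 13.3, 51.9 ± 18.2, 27.1 ± 9.14 and 8.25 ± 1.82 CPM in the same order. The step from cortex to striatum was 0.42 log2 units (SE 0.19) and missed the threshold by edgeR (FDR = 0.08), while cortex exceeded cerebellum 8.41-fold (FDR = 1.5e-43). That step passed by limma-voom (0.48, FDR = 0.038), also with the mouse as a block (0.46, FDR = 0.036), and by edgeR without wild-type mouse 9083373 (0.59, FDR = 0.011). It was 0.24 (FDR = 0.35) for Rab3b and 0.08 (FDR = 0.86) for Syt5 without the 2 striatal libraries.

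Syt2 and Vamp1 had the opposite preference. Syt2, encoding a fast calcium sensor, ranged from 184 to 444 CPM in wild-type brainstem (median 342) and from 231 to 345 in cerebellum (median 272), against 12.9 to 74.9 in cortex (median 41.9) and 27.3 to 110 in striatum (median 50.3). The hindbrain libraries all lay above the forebrain libraries. The step from brainstem to cerebellum missed the threshold (0.22 log2 units, SE 0.26, FDR = 0.45), as did that from striatum to cortex (0.37, FDR = 0.28). Cerebellum exceeded striatum by 2.35 log2 units (FDR = 1.9e-17). Vamp1 (chr6:125215581-125222306) ranged from 877 to 1520 CPM in brainstem (median 1260), from 275 to 460 in cerebellum (median 426), from 107 to 302 in cortex (median 189) and from 56.1 to 598 in striatum (median 133). Brainstem exceeded cerebellum by 1.71 log2 units (SE 0.31, FDR = 2.3e-07) and did not overlap with any other region. The upper end of striatum, 598 and 294 CPM, came from mice 7267059 and 7267058, the pair of libraries with high thalamus markers. Without this pair striatal Vamp1 ranged from 56.1 to 164 CPM and striatal Syt2 from 27.3 to 71.7, and cerebellum exceeded striatum by 2.62 log2 units for Syt2 (FDR = 9e-19) and 1.77 for Vamp1 (FDR = 9.4e-11).

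**Figure D2:**
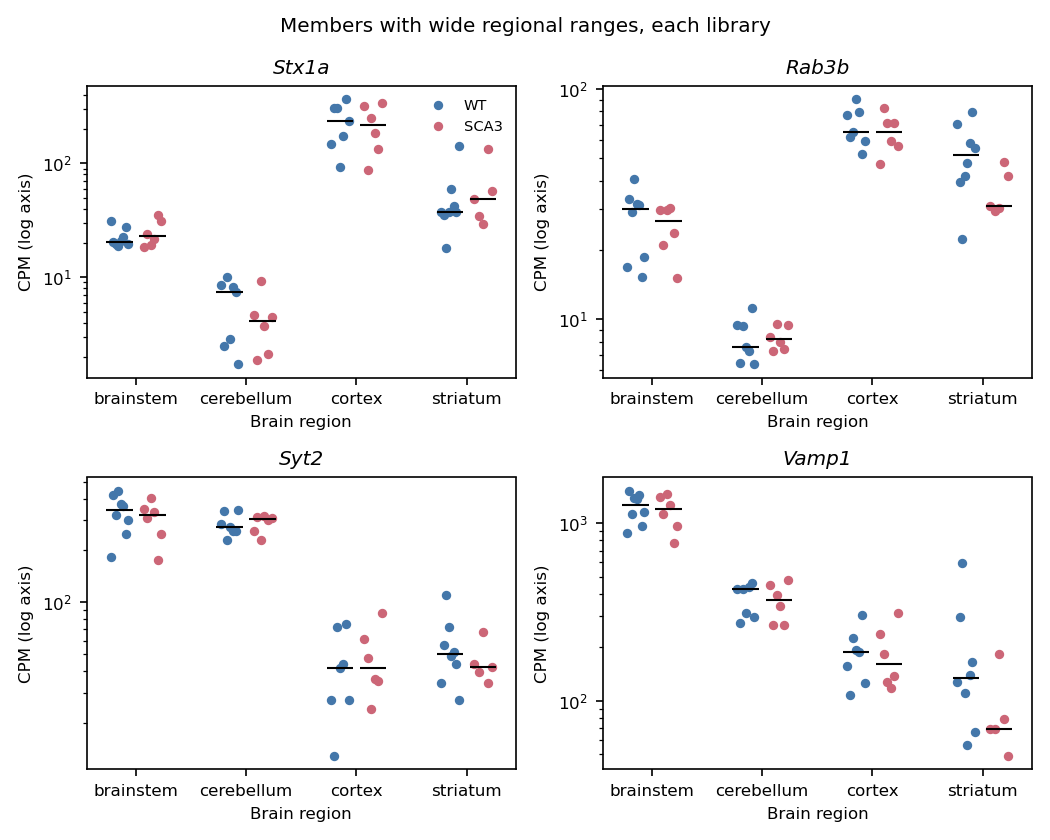
CPM (log axis) of Stx1a, Rab3b, Syt2 and Vamp1 in each library by brain region, blue for wild-type and red for SCA3, with bars at the group medians. In wild-type, Stx1a falls from a median of 236 in cortex to 7.37 in cerebellum, and Vamp1 rises to 1260 in brainstem.

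Other genes with wide ranges were less sharply split. Syt6 was the only gene highest in striatum, with 125 ± 56 CPM against 53.4 ± 22.8 in cortex, 46.4 ± 5.74 in brainstem and 22.4 ± 5.3 in cerebellum, and striatum exceeded cortex by 1.23 log2 units (SE 0.25, FDR = 2.4e-05). Doc2b, which encodes a calcium-binding protein linked to spontaneous release, averaged 98.3 ± 16.7 CPM in cerebellum, 94.5 ± 29 in striatum, 68.7 ± 24.6 in cortex and 22 ± 14.4 in brainstem, and only the last step passed the test (1.64 log2 units, FDR = 2.1e-06). Syt9 was 0.94 log2 units higher in cerebellum than in striatum (SE 0.22, FDR = 6.1e-05). Its striatal libraries held 60.3 and 76.1 CPM in the pair with high thalamus markers and 19.8 to 26.9 in the other 6. Without that pair the difference was 1.5 (FDR = 8.9e-15), and brainstem came next after cerebellum instead of striatum (1.30 log2 units lower, FDR = 1.3e-13). The striatal means of Syt6, Doc2b and Unc13c were then 147 ± 42.4, 105 ± 25.5 and 215 ± 84.6 CPM, Syt6 exceeded cortex by 1.46 log2 units (FDR = 5.2e-08), and Doc2b differed from cerebellum by 0.09 (FDR = 0.82). Unc13c averaged 351 ± 53.5 CPM in brainstem and 100 ± 52.4 in cortex. At the other end, Napa, the alpha-SNAP adaptor of NSF, spanned only 0.16 log2 units between its extreme regions, at 202 to 226 CPM. The difference missed the threshold (FDR = 0.089).

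Because paralogues can replace each other at a release site, 15 within-family ratios were formed in each library as the log2 ratio of counts. The widest regional difference was that of Syt2 to Syt1. Its wild-type median was -0.55 in brainstem and -0.93 in cerebellum, but -4.98 in cortex and -4.43 in striatum. The highest forebrain library, at -3.52, lay below the lowest hindbrain library, at -2.29. Syt1, the main fast calcium sensor of the forebrain, contributed with 1660 ± 287 CPM in cortex against 581 ± 168 in brainstem.

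The Vamp1 to Vamp2 ratio had a median of 1.54 in brainstem, -0.48 in cerebellum, -2.28 in cortex and -2.58 in striatum. Corrected for exon length the brainstem median was 0.50, so brainstem was the only region in which the Vamp1 median exceeded that of Vamp2 per length, and the cerebellar, cortical and striatal medians were -1.52, -3.32 and -3.62. Vamp2 itself averaged 494 ± 88.4 CPM in brainstem and 1040 ± 160 in cortex. The Unc13c to Unc13a ratio went from 0.50 in brainstem through -0.88 in cerebellum and -1.17 in striatum to -3.14 in cortex. Unc13a, the main priming factor, averaged 263 ± 20.2 CPM in brainstem and 653 ± 154 in cortex. With 6 wild-type striatal libraries, the pair left out, the striatal medians of the 3 ratios were -4.52 for Syt2 to Syt1, -2.67 for Vamp1 to Vamp2 and -1.29 for Unc13c to Unc13a. Over the other 12 pairs the wild-type medians differed by between 0.64 (Rab3c to Rab3a) and 2.80 (Cplx1 to Cplx2) log2 units between regions.

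**Figure D3:**
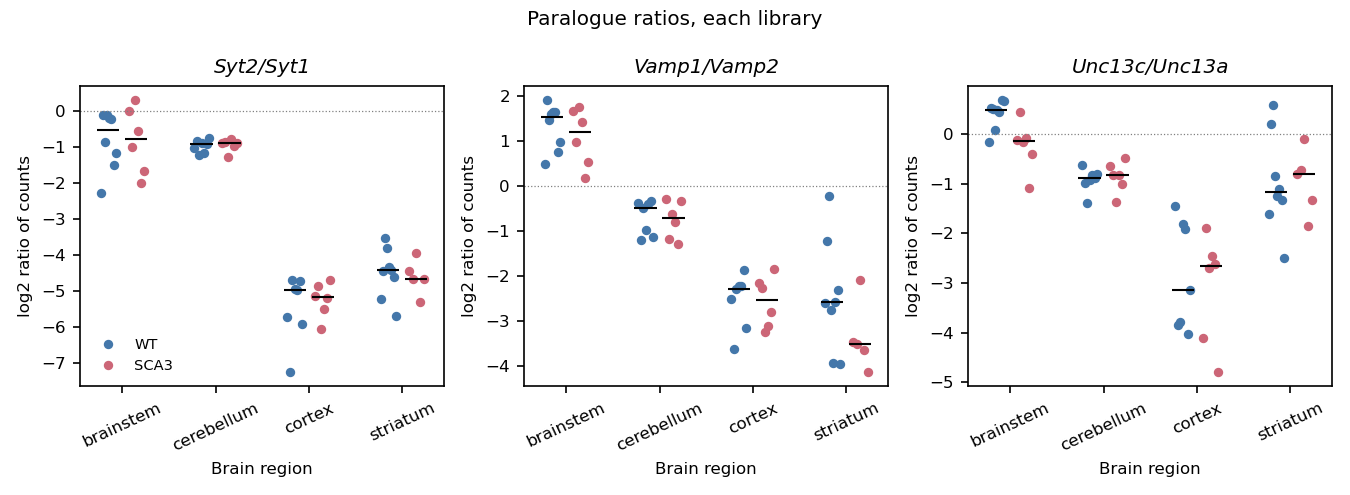
Log2 ratio of counts of Syt2 to Syt1, Vamp1 to Vamp2 and Unc13c to Unc13a in each library by brain region, blue for wild-type and red for SCA3, with bars at the group medians and a dotted line at equal counts. Only brainstem has wild-type medians above 0 (1.54 for Vamp1 to Vamp2, 0.50 for Unc13c to Unc13a).

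The same ratios were compared between genotypes. Of 60 comparisons of SCA3 with wild-type (15 pairs in 4 regions), 2 had a p under 0.05 in the exact two-sided permutation test of the difference in means and 0 passed after Benjamini-Hochberg adjustment. The smallest p was that of Unc13c to Unc13a in brainstem, where the mean was 0.41 ± 0.3 in wild-type (SD, n = 8) and -0.23 ± 0.5 in SCA3 (n = 6), a difference of -0.64 (exact permutation p = 0.0073, adjusted p = 0.44). The Napb to Napa ratio in brainstem differed by -0.24 (exact permutation p = 0.024, adjusted p = 0.73). Vamp1 to Vamp2 had a median of -3.50 in SCA3 striatum, within the wild-type range of -3.94 to -0.21.

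SCA3 was then compared with wild-type gene by gene in each region. In cerebellum, cortex and brainstem no release gene was called at an FDR below 0.05, while 0.0647%, 0.154% and 1.92% of all genes were. In striatum 4 of the 50 were called (8.00%, against 7.54% of all genes), so the share in the group was near that of the whole table. DESeq2 called 5 there (9.39% of all genes), the fifth being Sv2a, and the quasi-likelihood test called 3 (6.93%), without Syt13. Of the 4 called by edgeR, 3 were lower in SCA3 (5.47% of all genes were) and 1 was higher (2.07%). The median log2 fold change of SCA3 over wild-type was -0.05 in brainstem, -0.02 in cerebellum, -0.01 in cortex and -0.06 in striatum, and 0 over all genes in each region. The spread was wider in striatum, where the median size of the change was 0.20 in the group and 0.11 over all genes, than in cerebellum, where both were 0.04. Without the 2 striatal wild-type libraries with high thalamus markers the striatal values were 0.13 and 0.09.

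**Figure D4:**
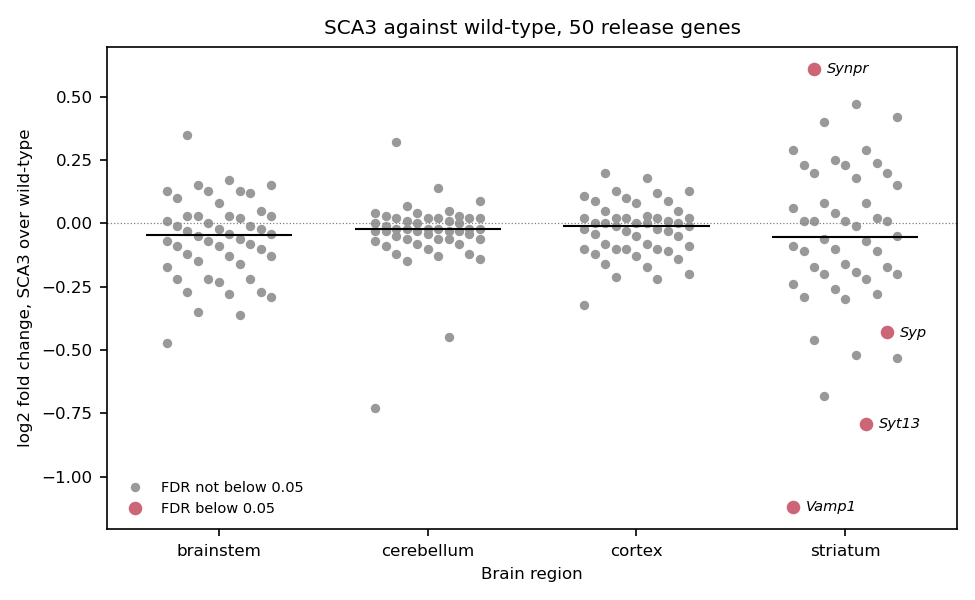
Log2 fold change of SCA3 over wild-type for each of the 50 genes in each brain region, with bars at the medians (-0.05, -0.02, -0.01 and -0.06) and red points for an FDR below 0.05. The red points are Synpr, Syp, Syt13 and Vamp1, all in striatum.

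Syp (chrX:7638580-7653256) was lower in SCA3 striatum. The wild-type libraries held 673, 695, 971, 986, 1030, 1050, 1110 and 1290 CPM and the SCA3 libraries 560, 596, 687, 790 and 988. The groups overlapped, and the 2 lowest wild-type libraries lay below the 2 highest SCA3 ones. The log2 fold change was -0.43 (SE 0.12, FDR = 0.0096). An annotated transcript on the opposite strand, Gm14703, covers 33.8% of the exon length of Syp, and counting without strand does not separate them.

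Synpr, which encodes the tetraspan synaptoporin (chr14:13284780-13615469), was higher in SCA3 striatum. Wild-type libraries ranged from 63.1 to 194 CPM with a median of 141, and the 5 SCA3 libraries held 173, 185, 217, 219 and 224. The lower part of the SCA3 range overlapped with the upper wild-type libraries. The log2 fold change was 0.61 (SE 0.18, FDR = 0.017). Synpr was also the only gene of the group called in the combined test over all regions (FDR = 0.024, against 4.73% of all genes called), but not by the quasi-likelihood test (FDR = 0.064), with a RIN of at least 7 (FDR = 0.2), without the 2 striatal libraries (FDR = 0.064) or by limma-voom without the block, which gave an FDR just above the threshold, and over left-out mice the FDR lay between 0.0027 and 0.16. Its fold change ran from -0.29 in brainstem and -0.21 in cortex to 0.32 in cerebellum. Whether its effect depended on region missed the threshold (FDR = 0.11), and 0 of the 50 genes were called in that test by edgeR (0.218% of all genes), with 4 at an unadjusted p under 0.05 (9.09% of all genes) and 0 called by DESeq2, limma-voom and the quasi-likelihood test.

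Syt13, an atypical synaptotagmin gene without calcium-binding residues (chr2:92915101-92956051), ranged from 60.3 to 205 CPM in wild-type striatum (median 128) and held 43.9, 51.4, 54.3, 92.3 and 128 CPM in SCA3. A total of 3 SCA3 libraries lay below all wild-type ones. The log2 fold change was -0.79 (SE 0.25, FDR = 0.034). Vamp1 had the largest change of the group, at -1.12 (SE 0.34, FDR = 0.029). Its SCA3 libraries held 48.9, 69.3, 69.4, 79.1 and 182 CPM and the wild-type ones 56.1, 66.5, 110, 128, 139, 164, 294 and 598. The lower part of the wild-type range overlapped with SCA3. By limma-voom with the mouse as a block Vamp1 was at -0.88 and was not called (FDR = 0.09), as also without the block (-0.87, FDR = 0.088), while the other three were called in both.

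Marker lists were also compared between genotypes in striatum. All 11 measured thalamus markers had lower estimates in SCA3 striatum and 6 were called. Their summed level was 259 to 3080 CPM in wild-type and 264 to 606 in SCA3. All 12 markers of mature oligodendrocytes had lower estimates in SCA3 with 5 called, at 6680 to 19400 CPM in sum against 6170 to 9410. All 12 markers of striatal projection neurons had higher estimates in SCA3 with 0 called, at 2640 to 11100 against 7110 to 10500 CPM. Of 10 astrocyte markers 9 had lower estimates in SCA3 with 4 called, at 4490 to 6450 against 4630 to 5170 CPM, and of 12 markers of neurons in general 8 had lower estimates with 3 called, at 4150 to 5630 against 4340 to 5110 CPM. Of 10 microglia markers 9 had lower estimates, as did all 3 measured choroid plexus markers, with 0 called in both lists. The cortical glutamatergic, cerebellar and endothelial lists had estimates of both signs, with 1 called, in the cerebellar list. None of these markers was at 0 over the striatal libraries. Their part in the results was not tested.

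Without the 2 striatal libraries with high thalamus markers, none of the 4 was called and the log2 fold changes were -0.33 for Syp (FDR = 0.11), 0.44 for Synpr (FDR = 0.16), -0.53 for Syt13 (FDR = 0.3) and -0.30 for Vamp1 (FDR = 0.67). Rab3b was then the only called gene of the group, at -0.70 (FDR = 0.037, against 2.34% of all genes called). With all libraries Rab3b had been at -0.52 (SE 0.21, FDR = 0.12), with 22.4 to 79.8 CPM in wild-type and 29.5 to 48.2 in SCA3. Among striatal libraries alone, without a covariate, none of the group was called (0.711% of all genes). With the thalamus marker score added to that fit as a covariate, Vamp1 was at -0.10 (FDR = 0.96). Again none was called (0.655% of all genes), so the count cannot show what the score changed. Over all alternatives the log2 fold change was -0.57 to -0.17 for Syp, 0.34 to 0.70 for Synpr, -1.08 to -0.28 for Syt13 and -1.54 to -0.10 for Vamp1. The count of called genes was 0 without SCA3 mouse 7267054, 7267056 or 9083515 (3.23%, 2.43% and 2.4% of all genes called). It was 1 without wild-type mouse 7267058 or 7267059 (4.51% and 3.86%), 2 without 9083373 (4.44%), and 7 without 9082857 or 9083371 (14.8% and 13.3%). For the others it was 6 without 9083514 or 9083375 (7.66% and 8.61%) and 5 without 9082853 (10%). Without 7267055 or 9083513 it stayed at 4 (6.98% and 6.91%), and without 9083372 it was 3 (5.65%). The count in the group thus moved with the share over all genes, though not strictly. Mouse numbers fall into 3 series by their leading digits. The series of mouse 7267054 (3 wild-type, 2 SCA3) holds both wild-type striatal libraries with high thalamus markers. The difference in mean log2 CPM of Vamp1 was -2.03 in this series and -0.63 in that of 9083514 (4 and 2). Between 9082853 and 9082857 (1 and 1) it was 0.73. The same values were -0.93, -0.17 and 0.18 for Syp, 1.18, 0.48 and -0.07 for Synpr, and -1.73, -0.42 and 0.61 for Syt13.

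**Figure D5:**
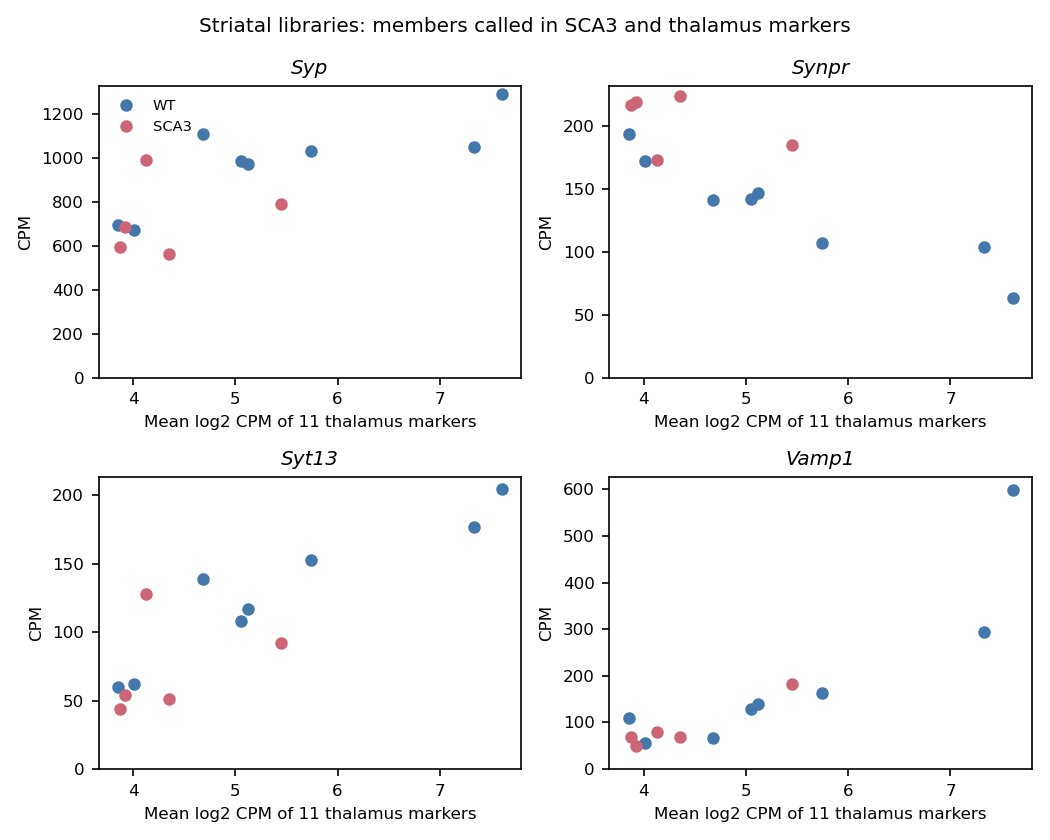
CPM of Syp, Synpr, Syt13 and Vamp1 in the 13 striatal libraries against the mean log2 CPM of 11 thalamus markers, blue for wild-type and red for SCA3. The 2 wild-type libraries at marker scores of 7.33 and 7.61 hold the highest Vamp1 (294 and 598) and Syt13 values (177 and 205), and the lowest Synpr values (104 and 63.1).

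For the called genes with a start site in the RefSeq table (GRCm38.p6), and for Stx1a with its wide regional range, the 250 bases before the first start site are shown on the strand of the gene. They are the stretches in which letters shared by these genes were looked for. Capitals mark a GC box (GGGCGG or its reverse complement CCGCCC) or the half-site of a cyclic AMP response element (TGACG or its reverse complement CGTCA). The windows are chrX:7638330-7638579 for Syp, chr14:13284530-13284779 for Synpr, chr6:125215331-125215580 for Vamp1 and chr5:135023232-135023481 for Stx1a, all on the forward strand.
Syp: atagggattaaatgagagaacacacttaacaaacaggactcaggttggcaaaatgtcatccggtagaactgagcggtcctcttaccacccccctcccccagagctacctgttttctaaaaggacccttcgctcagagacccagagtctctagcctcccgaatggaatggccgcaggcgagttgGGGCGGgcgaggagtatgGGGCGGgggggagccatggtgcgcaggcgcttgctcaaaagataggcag
Synpr: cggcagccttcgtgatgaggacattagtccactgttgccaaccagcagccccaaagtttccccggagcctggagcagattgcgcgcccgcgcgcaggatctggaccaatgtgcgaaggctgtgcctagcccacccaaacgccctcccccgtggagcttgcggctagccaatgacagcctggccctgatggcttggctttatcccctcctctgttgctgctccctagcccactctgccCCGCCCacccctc
Vamp1: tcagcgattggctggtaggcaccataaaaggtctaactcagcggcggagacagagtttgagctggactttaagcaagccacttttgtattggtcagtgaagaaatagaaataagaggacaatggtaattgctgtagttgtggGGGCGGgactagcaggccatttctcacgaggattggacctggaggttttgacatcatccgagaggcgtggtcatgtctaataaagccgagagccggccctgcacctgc
Stx1a: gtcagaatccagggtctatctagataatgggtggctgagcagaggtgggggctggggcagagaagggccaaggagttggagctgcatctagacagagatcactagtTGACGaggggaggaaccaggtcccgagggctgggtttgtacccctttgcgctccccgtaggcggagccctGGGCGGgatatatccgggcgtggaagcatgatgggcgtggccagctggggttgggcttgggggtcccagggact
Each of the 4 windows held a GC box, and the GC content was 56.4%, 64%, 50.4% and 62% in this order. A GC box was present in at least 1 window of 30 of the 39 measured release genes that have a window (76.9%). It was present for 35.4% of all 27025 genes with a window, and the median GC content over windows was 61.2% against 52.4%. These 27025, meant by all genes in this paragraph, were taken whether or not they were measured here and are no matched background. The half-site was found for 10 of the 39 (25.6%, all genes 19.8%), and the full 8-base element TGACGTCA, which contains the half-site on both strands, for 2 (5.13%, all genes 1.77%). The TATA box letters TATAAA were found for 2 of the 39 (5.13%), against 14.3% of all genes. For 42 of the 53 windows of the 39 genes, those of the 4 genes shown included, the bases after the start site were found in a GENCODE M21 transcript of the gene. Over the 32 genes with such a window, 24 held a GC box (75%).

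Outside striatum no gene passed the threshold, and the 2 with the smallest p in each region are given here. In brainstem these were Pclo, at -0.28 (SE 0.12, FDR = 0.22), and Syt4, at -0.22 (SE 0.1, FDR = 0.27). Pclo ranged from 233 to 350 CPM in wild-type and from 217 to 342 in SCA3, and the groups overlapped over most of their range. A total of 4 of the 50 release genes (13.3% of all genes) had an unadjusted p under 0.05 in brainstem by edgeR, and DESeq2, limma-voom and the quasi-likelihood test called 0. Pclo was called without SCA3 mouse 7267056 (-0.39, FDR = 0.026). In brainstem the RIN was 7.24 ± 0.424 in wild-type and 7.78 ± 0.264 in SCA3, and all 12 oligodendrocyte markers and 9 of 10 astrocyte markers had lower estimates in SCA3, with 3 called in each list. All 10 microglia markers also had lower estimates, with 1 called. Their part in these values was not tested.

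In cerebellum the leading genes were Syt5, at -0.73 (SE 0.3, FDR = 1), and Synpr, at 0.32 (SE 0.18, FDR = 1). Syt5 was low there in both groups, with 4.47 to 23.6 CPM in wild-type and 3.29 to 18.6 in SCA3. The Synpr groups did not overlap, which held for 1 of the 50 genes and 0.234% of all genes, with 61.8, 81.8, 86.6, 88, 90.2, 91.1 and 91.4 CPM in wild-type and 95.3, 97.6, 101, 107, 114 and 116 in SCA3, and with the cerebellar libraries alone the FDR was 0.094. All 3 measured choroid plexus markers had higher estimates in SCA3 cerebellum with 0 called, at a mean log2 CPM of 2.04 to 7.57 in wild-type and 6.15 to 7.56 in SCA3, and all 10 endothelial markers had lower estimates with 0 called, at a mean log2 CPM of 4.17 to 4.52 and 3.89 to 4.29. Their part in these values was not tested. Of the 50 genes, 1 had an unadjusted p under 0.05 in cerebellum (1.66% of all genes) and 0 in cortex (4.07%), and DESeq2, limma-voom and the quasi-likelihood test called 0 in both. In cortex the leading genes were Syt9, at -0.32 (SE 0.24), and Syn3, at 0.12 (SE 0.09), each with an FDR of 1.

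A further 46 genes of release and recycling outside the list were also measured. None was called in brainstem, cerebellum or cortex by edgeR (1.92%, 0.0647% and 0.154% of all genes were), with 3, 0 and 0 at an unadjusted p under 0.05 (13.3%, 1.66% and 4.07% of all genes), and DESeq2, limma-voom and the quasi-likelihood test called 0 there too. In striatum 6 were called (7.54% of all genes were), of which 2 were higher (2.07%) and 4 lower in SCA3 (5.47%). The other tools called 3 to 7 (5.63% to 9.39% of all genes). Without the 2 striatal libraries with high thalamus markers 0 of the 46 were called by edgeR (2.34% of all genes). Then 4 had an unadjusted p under 0.05 (14.5% of all genes). The 6 were then at 0.27 (Erc2), 0.10 (Scamp1), -0.18 (Cadps), -0.13 (Bin1), -0.37 (Sncb) and -0.84 (Slc17a6), with FDR between 0.182 and 0.628. With all libraries the higher ones were Erc2, an active zone scaffold gene (0.39, SE 0.11, FDR = 0.0164), and Scamp1, a secretory carrier membrane protein gene (0.18, SE 0.06, FDR = 0.0469). The lower ones were Cadps, the dense-core vesicle priming gene (-0.42, SE 0.14, FDR = 0.0461), Bin1, the amphiphysin 2 gene (-0.23, SE 0.08, FDR = 0.0495), Sncb, encoding beta-synuclein (-0.49, SE 0.15, FDR = 0.0194), and Slc17a6, encoding the vesicular glutamate transporter VGLUT2 and also held by the thalamus marker list (-2.48, SE 0.71, FDR = 0.0317).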

How the data were processed

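Per the methods, the authors made poly-A libraries that do not keep strand, aligned the reads to GRCm38 with STAR 2.3.0e and counted uniquely placed reads per RefSeq gene with HTSeq 0.6.1, ignoring strand. They deposited raw counts of genes averaging above 4 CPM (31.7 to 76.7 M per library). Reads of overlapping genes or near-identical copies are therefore uncertain.

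All 53 libraries, grouped by the region and genotype of their labels, were fitted together with edgeR 4.0.16 (R 4.3.3) after TMM, with likelihood ratio tests as in the study. The false discovery rate (FDR, Benjamini-Hochberg) covered all 12372 genes, with a threshold of 0.05. The functions were tested on simulated data, on which the likelihood ratio test made more false calls than its threshold allows. Log2 CPM used a prior count of 2 and ratios a pseudocount of 0.5 counts. Exon lengths are unions of GENCODE M21 transcripts matched to RefSeq.

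Pairing of libraries across regions comes from the mouse they share. After subtracting group means, libraries of a mouse correlated across genes with r averaging 0.0904 to 0.186, depending on which of the 6 region pairs was taken. Genotype does not vary within a mouse.

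Genes named were those called in any test, the 2 with the smallest p in a region with fewer than 2 calls, the 10 with the widest range of wild-type region means, and the 3 pairs whose ratios differed most between regions. The gene lists and this rule were chosen with earlier results of these data known. Alternatives were the quasi-likelihood test, DESeq2 1.42.0, limma-voom (limma 3.58.1) with and without the mouse as a block, RLE factors, genes with at least 10 counts throughout, RIN or mouse series as covariates, a RIN of at least 7, a region or its largest mouse series alone, the thalamus score as covariate, a pseudocount of 5 or medians for ratios, and leaving out each mouse. Leaving out the 2 striatal libraries was chosen after seeing the data.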

Additional observations from a re-analysis of the deposited data

Results flagged for a closer look

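A total of 76 groups of wild-type or SCA3 libraries of the named genes were checked for a library far from the others (Dixon's criterion at the 95% level, which flags about 1 group in 20 by chance), and 3 were found, all from wild-type mouse 9083375. Its cerebellar library held 61.8 CPM of Synpr, with the next library at 81.8. Its brainstem library held 35.2 CPM of Syt6, with the other 7 between 43.6 and 52.8. Its striatal library held 66.6 CPM of Unc13b, against a group median of 31.5. No gene of the group passed the test of a genotype effect that differs between regions.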

How the results depend on the processing

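The highest-region counts kept within 1.5 times of the reported ones under every alternative run, with ranges over left-out mice of 9 to 10 in brainstem, 6 in cerebellum, 11 to 14 in cortex and 1 in striatum. With the mouse as a fixed block in the wild-type libraries they were 9, 6, 12 and 1. The ratio comparisons stayed at 0. The striatal count of 4 (7.54% of all genes) was 5 by DESeq2 (9.39%). It was 3 by the quasi-likelihood test (6.93%) and by limma-voom with the mouse as a block (5.76%). It was 0 with a RIN of at least 7 (1.12%) or with the number series of mouse 9083514 alone (0.162%). With striatal libraries alone it was 0 both without (0.711%) and with the thalamus score (0.655%). Without the 2 striatal libraries with high thalamus markers it was 1 (2.34%), and over left-out mice 0 to 7 (2.4% to 14.8%). In brainstem the count of 0 became 1 with its libraries alone (Napb, with 3.17% of all genes). With the thalamus score added to that fit it was 2 (Snap25 and Napb, 6.11%). It was 2 with the series of mouse 9083514 alone (Unc13c and Pclo, 1.86%) and 0 to 1 over left-out mice (0.97% to 2.5%). The combined count of 1 (4.73% of all genes) became 0 by the quasi-likelihood test (3.39%) and by limma-voom without the block (2.93%). It was also 0 with a RIN of at least 7 (2.62%) or without the 2 striatal libraries with high thalamus markers (3.57%). Over left-out mice it was 0 to 3 (2.25% to 8.48%), while with the mouse as a block it was 1 (2.1%). Region dependence stayed at 0 (0.218% of all genes in the main fit), with 0 to 1 over left-out mice (0.0242% to 2.13%). Cerebellum and cortex stayed at 0 (0.0404% to 0.17% and 0.0727% to 0.323% of all genes). The cause of these shifts was not tested. Striatal RIN ranged from 6 to 9 in wild-type and from 5.7 to 8.3 in SCA3. The RIN limit left out the striatal libraries of mice 7267054, 7267055 and 7267058, the last being 1 of the pair with high thalamus markers. Its count therefore does not separate RIN from these mice. The smallest striatal group has 5 libraries, which limits the precision there.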
